A study of Mus musculus with 6 samples.

Results

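Ribosome biogenesis factors are the proteins that make ribosomes without being part of the finished particle. The 46 genes described here were chosen by symbol, with earlier results of these data known. Their list covers RNA polymerase I, small nucleolar ribonucleoproteins (snoRNPs), the small subunit processome and the later assembly of both subunits. All 46 had a row among the 54446 genes of each table, and 45 of them were among the 11915 genes tested, which had a mean of at least 1 FPKM (a read count divided by gene length and by a library total) over the 6 libraries. RNA was sequenced from Lewis cells, a mouse lung carcinoma line labelled as wild type and stem-like, kept in medium with 2% serum per the labels' protocols. There were 3 RT-MPs libraries, from cells given RT-MPs for 48 h (the labels leave this abbreviation unexplained), and 3 Control libraries, from cells left untreated and collected at the same time. The labels do not say how the stem-like state was obtained or whether the replicates were separate cultures, so p-values measure the spread between these libraries only. The comparison asks which transcripts differ between treated and untreated cells.

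Ribosomal RNA is copied from its gene repeats by RNA polymerase I in the nucleolus, folded and cut there, and modified at many bases under the guidance of small nucleolar RNAs. The precursor is then split into a small and a large subunit precursor, which are built by separate sets of factors and exported to the cytoplasm for the last steps. In tumor cells the genes of this pathway are known as targets of the transcription factor MYC, which binds the E-box CACGTG, and their output sets how fast a cell can grow.

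In RT-MPs libraries the ribosome biogenesis genes lay mostly below Control. Of the 45 tested genes, 43 had a negative log2 change, against 66.9% of all tested genes, and the median of the 45 was −0.31, against a median of −0.09 over all tested genes. Called here means a Benjamini-Hochberg adjusted p of at most 0.05 over all tested genes in limma on log2(FPKM + 1). By this test 10 fell: Mphosph10, Imp4, Rrp9 and Nol6 of the small subunit processome, Rrp12 and Ltv1 of late small subunit assembly, Bop1, Nop2 and Ebna1bp2 of large subunit assembly, and the snoRNP scaffold gene Nop56. That is 22.2% of the 45, where 2.70% of all tested genes were called lower. The 45 were chosen with earlier results of these data known, so these shares only describe the list. None was called higher, where 1.29% of all tested genes were; no gene of the 45 had an unadjusted p under 0.05 in that direction, and limma voom on recovered reads also called 0 higher. In 37 of the 45, every RT-MPs value lay below every Control value, which was true of 30.4% of all tested genes.

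**Figure D1:**
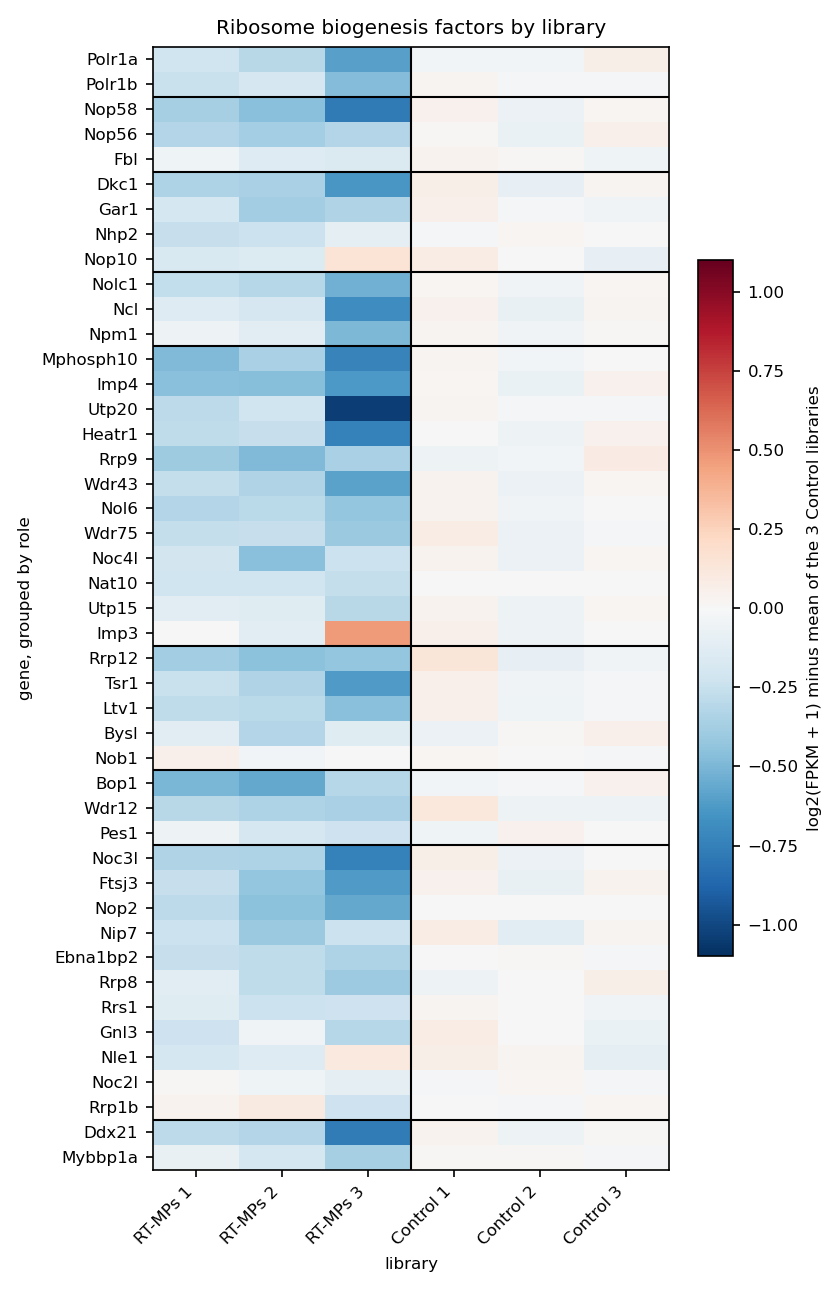
Log2(FPKM + 1) of the 45 tested genes in each of the 6 libraries, as the difference from the mean of the 3 Control libraries; rows are grouped by role, and colour runs from blue (lower) to red (higher). The 3 RT-MPs columns on the left are blue for most rows, and RT-MPs replicate 3 is dark blue for Utp20 and red for Imp3.

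The third RT-MPs library was unlike the remaining 5, so results are given with and without it. The sum of its FPKM column was 585751.9, where the other columns reached 296966.4 to 303798.5. A group of 5 genes took 6.57% of its reads, against 0.148% to 0.175% elsewhere. They are the rRNA-like or short RNA genes Gm42418, Gm26917, Gm23935 and Rn7sk and the protein-coding gene Lars2, picked with their values known. The read totals implied by the FPKM values were 21866388, 18239718 and 16944125 in RT-MPs replicates 1 to 3 and 20705869, 18792984 and 19300887 in Control replicates 1 to 3. The tested ribosome biogenesis gene with the fewest reads in any library had 302 of them, at which counting error is about 5.75%. Markers of other cell types were near 0: the 5 leukocyte markers summed to 0.115 to 0.179 FPKM in RT-MPs and 0.0356 to 0.252 in Control, and the 2 endothelial markers to 0.0095 to 0.193 in RT-MPs and 0.0765 to 0.119 in Control. Krt8 had 142.7 to 159.7 FPKM in RT-MPs and 163.8 to 174.3 in Control, and Vim 918.1 to 952.0 in RT-MPs and 918.2 to 954.3 in Control, whereas the epithelial adhesion gene Epcam was listed at 0 in all 6 libraries. Of 6 stem-cell markers, Cd44 alone had a mean above 1 FPKM, at 50.2 to 63.0 in RT-MPs and 57.4 to 61.5 in Control, and Sox2, Pou5f1 and Nanog were at or near 0, so the label stem-like is used here as given.

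Without RT-MPs replicate 3, 30 of the 45 genes were called lower, 66.7%, where 15.1% of all tested genes were, and these 30 included all 10 called with it. The median of the 45 was −0.27 without that library, against −0.06 over all tested genes. In 39 of the 45, the values of RT-MPs replicates 1 and 2 both lay below every Control value, which was true of 38.6% of all tested genes. When any of the other 5 libraries was left out, limma called 0 of the 45. In the same fits only 0.0% to 0.327% of all tested genes were called lower. Of the 45, 27 to 35 then had an unadjusted p under 0.05, with medians between −0.29 and −0.35. The share of all tested genes at that p in these fits is not given here, so these counts lack a background. With 6 libraries 34 of the 45 were lower at that p, as were 2488 of all 11915 tested genes. FPKM is a share of each library's total, and the scale mattered for the calls. Scaling by median ratios moved the median of all tested genes to 0.00 and left a median of −0.21 over the 45. It left 1 gene called, Imp4, where 1.02% of all tested genes were called lower. Without RT-MPs replicate 3 the same scaling called 21 of the 45, where 7.08% were. Polr1a, Polr1b, Wdr12, Wdr75, Gar1, Noc4l, Nip7, Nat10 and Rrs1 were called without that library as deposited, but not when this scaling was added. Bringing all libraries to an equal sum, as TPM does, put the median of all tested genes at −0.38 and that of the 45 at −0.62. None of the 45 was called, where 0.243% of all tested genes were called lower, and 12 had an unadjusted p under 0.05. How many of all tested genes had such a p after this rescaling is not given here. The median of the 45 minus that of all tested genes was then −0.24, against −0.22 as deposited. In bulk RNA, fewer cells expressing a gene and less RNA per cell cannot be told apart.

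**Figure D2:**
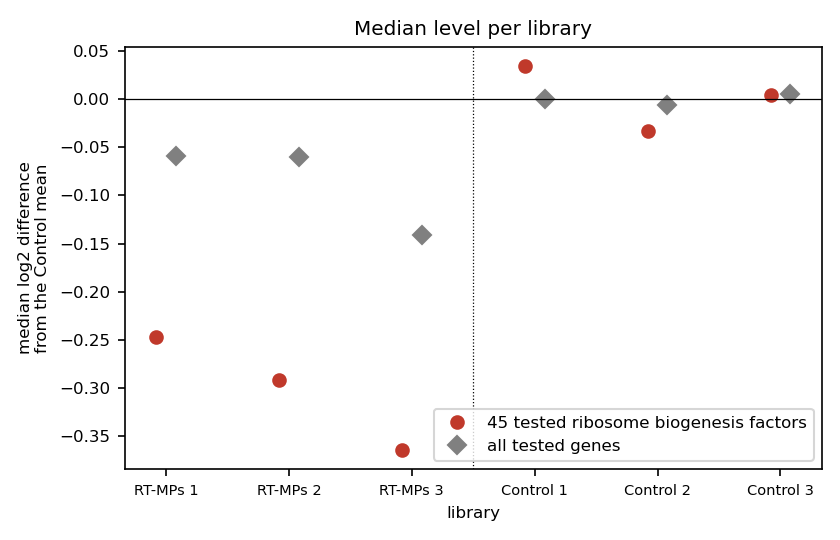
Median log2 difference from the Control mean, by library, for the 45 tested ribosome biogenesis genes (circles) and for all 11915 tested genes (diamonds). The 3 RT-MPs medians of the ribosome biogenesis genes sit between −0.36 and −0.25, and those of all tested genes between −0.14 and −0.06.

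Library by library, all 3 treated libraries lay below all 3 untreated ones. The median log2 difference of the 45 genes from the Control mean was −0.25, −0.29 and −0.36 in RT-MPs replicates 1, 2 and 3, against 0.03, −0.03 and 0.00 in Control replicates 1, 2 and 3. Relative to the median of all tested genes in the same library, these came to −0.19, −0.23 and −0.22 in RT-MPs and 0.03, −0.03 and 0.00 in Control. Together the 46 genes took 0.668%, 0.644% and 0.525% of reads in RT-MPs, against 0.762%, 0.722% and 0.751% in Control. Without Npm1 and Ncl, nucleophosmin and nucleolin, which hold many of these reads, the shares were 0.316%, 0.304% and 0.272% in RT-MPs, against 0.377%, 0.362% and 0.372% in Control. RT-MPs replicate 3 was lowest by both counts.

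Promoters are shown for called genes that hold the E-box letters CACGTG. These genes were taken because they were called lower, and binding of MYC was not measured. Promoter windows of 300 bases, 250 before and 50 after a gene's start, were taken from RefSeq on GRCm38.p6, where 40 of the 46 genes matched; Npm1, Rrp12, Nol6, Bop1, Rrs1 and Fbl did not. Of the 7 called genes with a window, Imp4, Nop2 and Ltv1 held CACGTG, 1 time each, in capitals here, with the first base at −121 from the gene's start in Imp4, at −60 in Nop2 and at 29, past the start, in Ltv1.
Imp4 promoter, GRCm38.p6, chr1:34439579-34439878, plus strand: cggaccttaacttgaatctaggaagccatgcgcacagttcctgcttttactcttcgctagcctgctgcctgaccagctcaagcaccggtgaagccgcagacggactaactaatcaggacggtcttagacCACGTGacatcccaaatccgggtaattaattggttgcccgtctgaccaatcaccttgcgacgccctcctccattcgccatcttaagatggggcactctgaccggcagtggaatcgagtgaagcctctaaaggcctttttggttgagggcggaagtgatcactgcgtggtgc
Nop2 promoter, GRCm38.p6, chr6:125131633-125131932, plus strand: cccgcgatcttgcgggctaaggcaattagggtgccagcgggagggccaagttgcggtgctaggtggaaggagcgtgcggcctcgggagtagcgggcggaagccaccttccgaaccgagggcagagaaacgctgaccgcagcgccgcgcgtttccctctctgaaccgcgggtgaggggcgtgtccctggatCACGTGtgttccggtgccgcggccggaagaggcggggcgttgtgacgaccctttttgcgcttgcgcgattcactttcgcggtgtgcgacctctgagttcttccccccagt
Ltv1 promoter, GRCm38.p6, chr10:13193088-13193387, minus strand: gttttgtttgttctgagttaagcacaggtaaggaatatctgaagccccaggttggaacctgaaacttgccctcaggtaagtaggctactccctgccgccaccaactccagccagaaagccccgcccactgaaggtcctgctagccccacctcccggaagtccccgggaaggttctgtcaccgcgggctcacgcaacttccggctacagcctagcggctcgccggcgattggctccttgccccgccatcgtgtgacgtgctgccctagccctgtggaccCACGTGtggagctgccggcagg

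The E-box CACGTG, which reads the same on both strands, was in 9 of the 40 promoters, 22.5%: Imp4, Ltv1, Mybbp1a, Nle1, Nop2, Pes1, Tsr1, Utp20 and Wdr43. It was in 12.2% of the 8513 tested genes with a window and in 8.09% of all 27025 genes with one. The core of ETS-family sites, CCGGAA on either strand, was in 18 of the 40, against 34.2% of the tested genes with a window and 16.7% of all genes. The letters TCGCGA, which also read the same on both strands, were in 3 of the 40, 7.50%, against 6.14% of the tested genes and 2.86% of all. Matches of different motifs were counted separately, whether or not they overlapped. Of the 9 genes with the E-box, 3 were called lower with a median log2 change of −0.39, and of the 30 tested genes without it 4 were called with a median of −0.30. Without RT-MPs replicate 3 these were 6 of 9 at −0.29 and 20 of 30 at −0.26. For CCGGAA, 5 of 17 tested genes with it were called lower with a median of −0.37, and 2 of 22 without it with a median of −0.30; without RT-MPs replicate 3 these were 14 of 17 and 12 of 22. For TCGCGA, 0 of 3 were called with a median of −0.40, and 7 of 36 without it with a median of −0.31. A match says only that the letters stand in the window, and the differences between genes with and without each motif were not tested.

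Values below are listed in the order of replicates 1, 2 and 3, and log2 changes are on the log2(FPKM + 1) scale, RT-MPs minus Control. Transcription of the rRNA repeats starts the pathway, and the 2 genes for the catalytic core of RNA polymerase I were lower in every RT-MPs library without being called. Polr1a, the largest subunit, had 7.06, 6.60 and 5.22 FPKM in RT-MPs libraries, against 8.19, 8.18 and 8.82 FPKM in Control libraries. The groups did not overlap, RT-MPs replicate 3 was lowest, and the log2 change was −0.37 (SE 0.10, limma adjusted p = 0.0904), or −0.26 (adjusted p = 0.0235) without RT-MPs replicate 3, a fit in which it passed the threshold. Polr1b, the other subunit of the catalytic core, had 6.20, 6.52 and 5.14 FPKM in RT-MPs libraries, against 7.71, 7.45 and 7.46 FPKM in Control libraries. Here too the groups were apart, with a log2 change of −0.30 (SE 0.09, limma adjusted p = 0.0959) and −0.21 (adjusted p = 0.0269) without RT-MPs replicate 3. Neither was called after median-ratio scaling.

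The box C/D snoRNP proteins carry the guide RNAs for ribose methylation of rRNA. Nop56, a scaffold of the particle (chromosome 2, 130274430 to 130279313, mm10), had 36.0, 34.8 and 36.0 FPKM in RT-MPs libraries, against 45.9, 43.2 and 47.1 FPKM in Control libraries. The 3 RT-MPs values were close together and below all Control values, and the gene fell by 0.34 on the log2 scale (SE 0.06, limma adjusted p = 0.0377), with −0.35 without RT-MPs replicate 3. Nop58, its paired scaffold, had 15.0, 14 and 11.0 FPKM in RT-MPs libraries, against 20.3, 18.7 and 19.9 FPKM in Control libraries. It had the lowest log2 change of all 45 genes, −0.54 (SE 0.11, limma adjusted p = 0.0517), and was not called with 6 libraries, although its groups did not overlap; the fit that left out RT-MPs replicate 3 called it, at −0.41 (adjusted p = 0.00851). Fbl, fibrillarin, the methyltransferase itself, had 17.5, 16.3 and 16.1 FPKM in RT-MPs libraries, against 18.6, 18.2 and 17.4 FPKM in Control libraries. Its groups overlapped, and its log2 change was −0.12 (SE 0.06, limma adjusted p = 0.269).

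Of the 4 box H/ACA snoRNP proteins, which direct the conversion of uridine to pseudouridine in rRNA, none was called with 6 libraries and 3 had an unadjusted p under 0.05. Dkc1, dyskerin, the pseudouridine synthase, had 14.4, 14.2 and 11.5 FPKM in RT-MPs libraries, against 19.3, 17.3 and 18.8 FPKM in Control libraries. All 3 RT-MPs values were below Control, with a log2 change of −0.45 (SE 0.10, limma adjusted p = 0.0558), and −0.35 (adjusted p = 0.0114) without RT-MPs replicate 3. Nhp2, the most abundant of the 4 per kilobase, had 47.6, 48.3 and 53.3 FPKM in RT-MPs libraries, against 56.2, 57.8 and 57.3 FPKM in Control libraries. Here RT-MPs replicate 3 was the highest of the treated libraries, so the log2 change of −0.20 (SE 0.06, limma adjusted p = 0.113) became −0.25 (adjusted p = 0.00908) without it. Nop10, the smallest protein of the complex, had 15.4, 15.6 and 19.4 FPKM in RT-MPs libraries, against 18.5, 17.4 and 16.3 FPKM in Control libraries. RT-MPs replicate 3 lay above all Control values and RT-MPs replicates 1 and 2 below them, and the log2 change was −0.06 (SE 0.10, limma adjusted p = 0.742). Gar1 averaged 16.5 ± 1.24 FPKM in RT-MPs and 20.6 ± 0.710 FPKM in Control (SD, n = 3 each), with groups that did not overlap and a log2 change of −0.30, or −0.29 without RT-MPs replicate 3, where it was called.

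Npm1 and Ncl were the highest of the 46 genes per kilobase. Npm1, nucleophosmin, a histone and ribosomal protein chaperone, had 858.1, 822.6 and 631.6 FPKM in RT-MPs libraries, against 908.5, 864.2 and 896.9 FPKM in Control libraries. RT-MPs replicate 3 was far below the other treated libraries, and the log2 change of −0.22 (SE 0.12, limma adjusted p = 0.284) was −0.08 (adjusted p = 0.164) without it and not called in either fit; Npm1 has processed pseudogenes that can take its reads. Ncl, nucleolin, which binds nascent pre-rRNA, had 130.9, 127.1 and 89.6 FPKM in RT-MPs libraries, against 149.4, 136.8 and 147.3 FPKM in Control libraries. RT-MPs replicate 3 was again the lowest by far, with −0.34 (SE 0.15, limma adjusted p = 0.197) and −0.16 (adjusted p = 0.053) without RT-MPs replicate 3. Nolc1, a chaperone of snoRNPs, had 30.5, 29.5 and 25.3 FPKM in RT-MPs libraries, against 37.5, 35.9 and 37.6 FPKM in Control libraries. RT-MPs replicates 1 and 2 were below Control too, and the log2 change of −0.37 (SE 0.08, limma adjusted p = 0.056) was −0.29 (adjusted p = 0.00937) without RT-MPs replicate 3, where it was called.

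The small subunit processome, the large particle that folds and cuts the 5′ part of the pre-rRNA, held 4 of the 10 called genes among its 12. Mphosph10, which forms a complex with Imp3 and Imp4 on the U3 snoRNP (chromosome 7, 64376527 to 64392268), had 7.60, 8.37 and 6.23 FPKM in RT-MPs libraries, against 11.3, 10.8 and 11.0 FPKM in Control libraries. No RT-MPs library reached the lowest Control value, and the log2 change was −0.53 (SE 0.10, limma adjusted p = 0.0451), with −0.42 without RT-MPs replicate 3. Imp4 (chromosome 1, 34439851 to 34449356), whose promoter is printed above, had 4.30, 4.26 and 3.68 FPKM in RT-MPs libraries, against 6.36, 5.93 and 6.53 FPKM in Control libraries. Its log2 change was −0.52 (SE 0.08, limma adjusted p = 0.0308), the smallest adjusted p of the 45 genes, with −0.46 without RT-MPs replicate 3; of the 10 called genes it was the 1 still called after median-ratio scaling, at −0.43 (adjusted p = 0.0299).

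Imp3, the third protein of that complex, was not called. It had 36.5, 33.4 and 50.7 FPKM in RT-MPs libraries, against 37.8, 34.9 and 36.4 FPKM in Control libraries, so RT-MPs replicate 1 lay within the Control range, RT-MPs replicate 2 below it and RT-MPs replicate 3 far above it. Its log2 change was 0.12 (SE 0.15, limma adjusted p = 0.627) with 6 libraries and −0.06 without RT-MPs replicate 3, and the threshold was missed in both fits. Imp3 is also the gene with the shortest principal transcript of the 45, 924 bases.

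Rrp9, a protein specific to the U3 snoRNP (chromosome 9, 106475963 to 106485424), had 9.44, 8.73 and 9.69 FPKM in RT-MPs libraries, against 12.1, 12.4 and 13.5 FPKM in Control libraries. The 3 treated libraries were alike, RT-MPs replicate 3 being the highest of them, and the log2 change was −0.41 (SE 0.07, limma adjusted p = 0.0377) with 6 libraries and −0.44 without that library. Nol6, a scaffold protein of the processome (chromosome 4, 41114427 to 41124455), had 10.8, 11.0 and 9.99 FPKM in RT-MPs libraries, against 14.1, 13.3 and 13.8 FPKM in Control libraries, with a log2 change of −0.35 (SE 0.06, limma adjusted p = 0.0402) and −0.31 without RT-MPs replicate 3. Wdr43, the most abundant of the 12 per kilobase and a member of the subcomplex that binds the pre-rRNA first, had 40.4, 38.6 and 32.0 FPKM in RT-MPs libraries, against 50.1, 46.7 and 49.5 FPKM in Control libraries. Its groups were apart, it was not called with 6 libraries at −0.39 (SE 0.09, limma adjusted p = 0.0635), and leaving out RT-MPs replicate 3 made it a call, at −0.30 (adjusted p = 0.011).

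The other 6 processome genes, Utp20, Heatr1, Wdr75, Noc4l, Nat10 (the acetyltransferase of small subunit rRNA) and Utp15, were lower in every RT-MPs library than in any Control library and were not called with 6 libraries. Their log2 changes ran from −0.52 for Utp20 to −0.19 for Utp15. Utp20, a long scaffold protein, had 6.39, 6.75 and 3.40 FPKM in RT-MPs libraries, against 8.24, 7.88 and 7.97 FPKM in Control libraries, and its change of −0.52 was −0.26 (adjusted p = 0.0181) without RT-MPs replicate 3. Of the 6, Utp15 alone was not called without that library, at −0.13 (adjusted p = 0.0912). Heatr1, Wdr75, Noc4l and Nat10 were then at −0.27, −0.26, −0.33 and −0.22.

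Late small subunit assembly ends with export and the last cut of the rRNA. Rrp12, a factor of subunit export (chromosome 19, 41862851 to 41896173), had 4.49, 4.23 and 4.34 FPKM in RT-MPs libraries, against 6.85, 5.73 and 5.98 FPKM in Control libraries. All RT-MPs values lay below Control, and the log2 change was −0.42 (SE 0.08, limma adjusted p = 0.0424), with −0.42 without RT-MPs replicate 3. Ltv1, which helps recruit the export machinery (chromosome 10, 13178140 to 13193168), had 31.0, 30.8 and 27.4 FPKM in RT-MPs libraries, against 39.6, 36.7 and 37.6 FPKM in Control libraries. All RT-MPs values were below Control, with a log2 change of −0.34 (SE 0.07, limma adjusted p = 0.0489) and −0.29 without RT-MPs replicate 3. Nob1, the endonuclease that makes the final cut of small subunit rRNA, had 24.1, 22.7 and 23.3 FPKM in RT-MPs libraries, against 23.5, 23.3 and 22.8 FPKM in Control libraries. Its groups overlapped, and its log2 change was 0.01 (SE 0.05, limma adjusted p = 0.919). Of the remaining 2, Tsr1, a GTPase-like assembly factor, had a log2 change of −0.40 and was called without RT-MPs replicate 3, and Bysl, bystin, had −0.19 and was not; 32.3% of the exon bases of Tsr1 also belong to Srr on the opposite strand, and the use of strand in counting is not given in the sources used here.

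Large subunit assembly includes the PeBoW complex of Pes1, Bop1 and Wdr12, which is needed to process the large subunit rRNAs. Bop1 (chromosome 15, 76452989 to 76477277) had 9.40, 8.97 and 10.8 FPKM in RT-MPs libraries, against 13.4, 13.5 and 14.2 FPKM in Control libraries. RT-MPs replicate 3 was the highest of the treated libraries, and the log2 change of −0.46 (SE 0.08, limma adjusted p = 0.0377) became −0.53 (adjusted p = 0.005) without it, the lowest of the 45 genes in that fit. Wdr12 had 3.82, 3.70 and 3.66 FPKM in RT-MPs libraries, against 5.44, 4.73 and 4.73 FPKM in Control libraries, with groups apart, a log2 change of −0.33 (SE 0.07, limma adjusted p = 0.0578) and −0.32 (adjusted p = 0.0265) without RT-MPs replicate 3. Pes1, pescadillo, the most abundant of the 3 per kilobase, had 38.4, 35.1 and 34.0 FPKM in RT-MPs libraries, against 38.6, 41.3 and 39.9 FPKM in Control libraries. The groups came close but did not overlap, its log2 change was −0.15 (SE 0.07, limma adjusted p = 0.193), and it was not called without RT-MPs replicate 3 either. The order Pes1, Bop1, Wdr12 per kilobase of summed exons, at 39.9, 13.7 and 4.97 FPKM in Control, was the same per kilobase of the principal transcript. The principal transcript was taken as the longest of a gene's top-ranked transcripts. For Wdr12 it has 10012 bases, where the summed exons have 11955, so both measures are close by choice. The order with a shorter Wdr12 transcript was not examined.

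Among the other large subunit factors, Nop2, a cytosine methyltransferase of large subunit rRNA (chromosome 6, 125131909 to 125144753), had 16.4, 14.6 and 13.4 FPKM in RT-MPs libraries, against 20.2, 20.4 and 20.3 FPKM in Control libraries. The Control values were almost equal and all RT-MPs values below them, and the log2 change was −0.43 (SE 0.08, limma adjusted p = 0.0414), with −0.37 without RT-MPs replicate 3. Ebna1bp2, the mammalian relative of the yeast assembly factor Ebp2 (chromosome 4, 118620799 to 118627776), had 19.3, 18.9 and 18.1 FPKM in RT-MPs libraries, against 23.1, 23.4 and 23.0 FPKM in Control libraries. It had a smaller change, −0.29 (SE 0.06, limma adjusted p = 0.043), with −0.27 without RT-MPs replicate 3. Noc3l, a factor of early large subunit export from the nucleolus, had 9.10, 9.01 and 6.57 FPKM in RT-MPs libraries, against 12.3, 11.1 and 11.7 FPKM in Control libraries; at −0.47 (SE 0.12, limma adjusted p = 0.0762) it was not called with 6 libraries and was called without RT-MPs replicate 3 at −0.33.

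At the other end, Noc2l, the partner of NOC-family proteins in large subunit transport and the most abundant of these genes per kilobase, had 88.6, 85.0 and 81.5 FPKM in RT-MPs libraries, against 87.2, 89.0 and 87.2 FPKM in Control libraries. Its groups overlapped, with a log2 change of −0.05 (SE 0.06, limma adjusted p = 0.611), and 20.9% of its exon bases also belong to Samd11 on the opposite strand. Rrp1b had 6.97, 7.29 and 5.61 FPKM in RT-MPs libraries, against 6.73, 6.68 and 6.87 FPKM in Control libraries, where RT-MPs replicates 1 and 2 lay above all Control values and RT-MPs replicate 3 below them, and its log2 change was −0.03 (SE 0.10, limma adjusted p = 0.838), or 0.07 without that library. Of the remaining 6 tested genes of this group, the rRNA methyltransferase gene Ftsj3, Nip7 and Rrs1 were called lower without RT-MPs replicate 3, at −0.34, −0.32 and −0.18, and Rrp8, Gnl3 (nucleostemin) and Nle1 were not, at −0.20, −0.13 and −0.16. Wdr74 was listed at 0 in 5 libraries and at 0.0376 FPKM in RT-MPs replicate 1, which corresponds to 2 reads, and was not tested. Most cells use Wdr74, and whether the counting could assign reads to it is not known, so the listed 0 is not read as a lack of expression.

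Ddx21, an RNA helicase that links RNA polymerase I transcription to rRNA processing, had 42.3, 41.2 and 29.9 FPKM in RT-MPs libraries, against 53.2, 49.8 and 52.2 FPKM in Control libraries. RT-MPs replicate 3 was far below the other treated libraries, which were themselves below Control, and the log2 change was −0.46 (SE 0.13, limma adjusted p = 0.0927), or −0.30 (adjusted p = 0.00937) without that library, where it was called. Mybbp1a, a nucleolar cofactor of RNA polymerase I transcription, had 40.1, 37.2 and 32.9 FPKM in RT-MPs libraries, against 43.0, 42.9 and 41.9 FPKM in Control libraries. Its groups were apart, and neither the log2 change of −0.21 (SE 0.08, limma adjusted p = 0.151) nor the value of −0.14 (adjusted p = 0.0653) without RT-MPs replicate 3 was called.

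**Figure D3:**
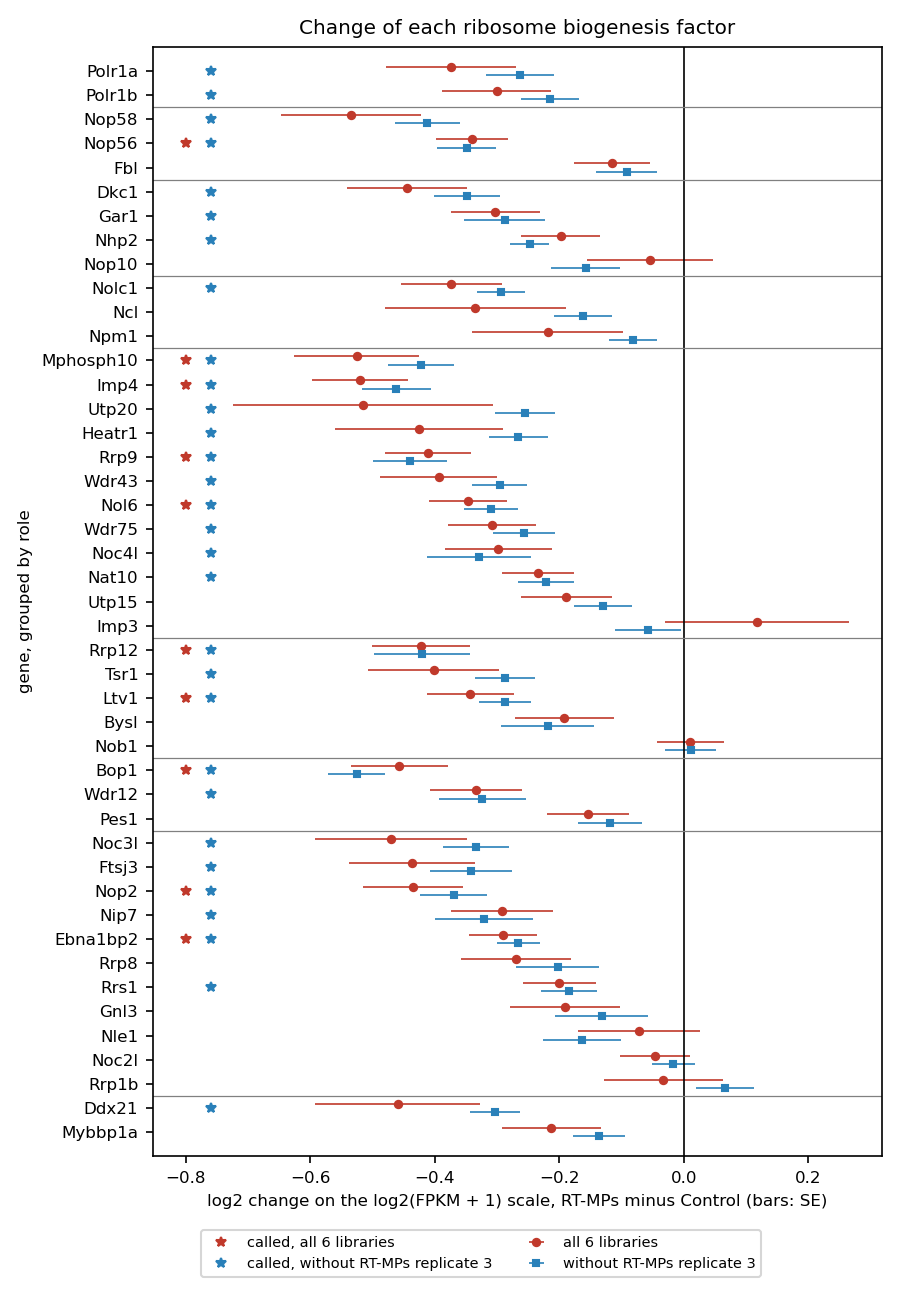
Log2 change of each of the 45 tested genes, RT-MPs minus Control on the log2(FPKM + 1) scale with its SE, from all 6 libraries (circles) and without RT-MPs replicate 3 (squares); stars at the left mark genes called in each fit. The values from 6 libraries run from −0.54 for Nop58 to 0.12 for Imp3, 10 genes carry the star of the first fit and 30 that of the second.

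Across the 45 genes, changes were modest: on the log2(FPKM + 1) scale the 10 called genes were between 18.3% and 30.6% lower in RT-MPs libraries. The called genes had Control levels from 6.19 FPKM for Rrp12 to 45.4 for Nop56, and none of the 6 genes above that (Wdr43, Ddx21, Nhp2, Noc2l, Ncl and Npm1) was called. Over the 45 genes Spearman's rho between Control level and log2 change was 0.125, a description over genes that share the same libraries. Levels per kilobase depend on which exons are counted. The FPKM values fit the summed length of all annotated exons, which is 10758 bases for Nop58, whereas its principal transcript has 1713; per kilobase of the principal transcript Nop58 stood at 120.2, above Nop56 at 96.6 and Fbl at 62.0, in Control, the reverse of the FPKM order of Nop56 and Nop58. The length used also sets how far the pseudocount shrinks a change: Wdr12, the lowest tested gene in Control, had a log2 change of −0.33 with a pseudocount of 1, −0.40 with 0.1 and −0.19 with 5.

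How far RT-MPs replicate 3 lay from the other treated libraries varied with transcript length. It was below both RT-MPs replicates 1 and 2 in 31 of the 45 genes, above both in 6 and between them in 8. Spearman's rho between the principal transcript length and the log2 ratio of RT-MPs replicate 3 to the mean of RT-MPs replicates 1 and 2 was −0.525 over the 45 genes. With the summed exon length it was −0.56 over the 45 and −0.43 over 11910 tested genes; the genes share the same 3 libraries, and no p is given. The 12 genes with principal transcripts under 2000 bases had a median ratio of 0.01, the 21 of 2000 to under 4000 bases −0.17 and the 12 of 4000 bases or more −0.26. The median log2 change of the same 3 classes was −0.19, −0.31 and −0.36 with 6 libraries, and −0.16, −0.29 and −0.27 without RT-MPs replicate 3. These lengths are of the longest top-ranked transcript, which puts Imp4 at 5836 bases and Ncl at 8202. The part of transcript length in the changes was not tested.

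**Figure D4:**
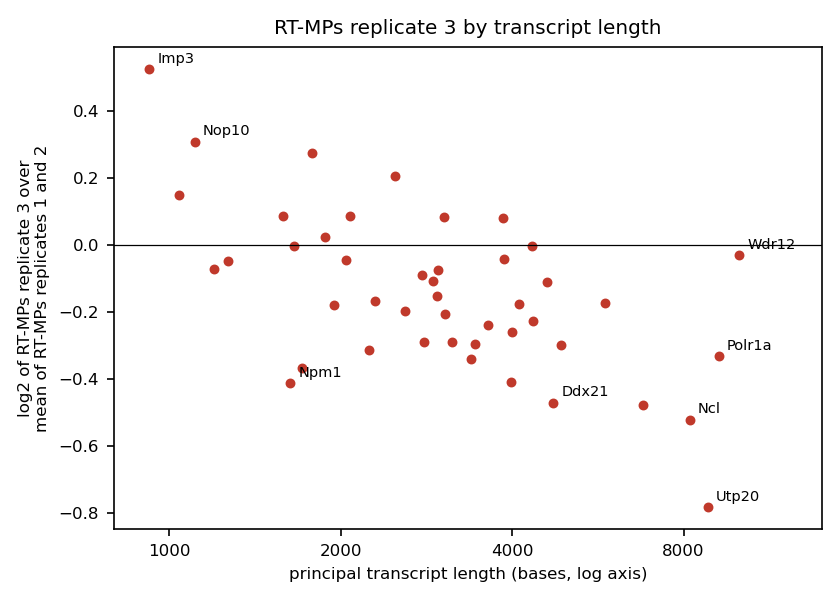
Log2 ratio of RT-MPs replicate 3 to the mean of RT-MPs replicates 1 and 2 (FPKM + 1) against principal transcript length on a log axis, 1 point per tested gene. Imp3, with the shortest transcript, is at 0.53 and Utp20, with 8821 bases, at −0.78.

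The other genes of the pathway were taken from lists written with earlier results of these data known. Of 158 tested genes of 7 lists (polymerases I and III, both subunit assembly routes, snoRNP assembly, the RNA exosome, and RNases P and MRP), 9 were called lower, 1 higher and 148 not called, with a median log2 change of −0.155. The 9 are 5.70% of the 158, where 2.70% of all tested genes were called lower. Without RT-MPs replicate 3, 48 were lower and 4 higher, and the 48 are 30.4% of the 158, where 15.1% of all tested genes were called lower. With median-ratio scaling 1 of the 158 was lower (Cd3eap) and 1 higher (Mphosph6), with quantile normalization 1 was called in each direction, and after rescaling to an equal sum none was. The difference between these and the 45 genes was not tested. In the processome, 3 of 39 further genes fell, 7.69%, where 2.70% of all tested genes were called lower. They were Rcl1, Tbl3 and Pno1, at −0.36, −0.44 and −0.38, with a list median of −0.23. In large subunit assembly 1 of 47 fell, Rrp15, at −0.37, with a median of −0.175; this is 2.13%, against 2.70% of all tested genes. None of these 4 was called with median-ratio scaling, at adjusted p = 0.0751, 0.0595, 0.0924 and 0.0737 in limma for Rcl1, Tbl3, Pno1 and Rrp15.

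RNA polymerase I had 2 of 18 further genes called lower, 11.1%, where 2.70% of all tested genes were. Both encode subunits specific to this polymerase: Twistnb had 10.4, 8.87 and 7.61 FPKM in RT-MPs libraries, against 13.9, 12.7 and 14.4 FPKM in Control libraries, and Cd3eap had 3.65, 3.34 and 2.96 FPKM in RT-MPs libraries, against 4.92, 5.44 and 5.61 FPKM in Control libraries. Their log2 changes were −0.56 (SE 0.11, limma adjusted p = 0.047) and −0.55 (SE 0.09, limma adjusted p = 0.0343), and the median of the 18 was −0.06, which turned to 0.04 with median-ratio scaling and 0.02 with quantile normalization. With median-ratio scaling Twistnb was not called (limma adjusted p = 0.0563) and Cd3eap was (limma adjusted p = 0.036). The initiation factor gene Rrn3 had 13.6, 12.2 and 8.87 FPKM in RT-MPs libraries, against 13.6, 14.1 and 13.6 FPKM in Control libraries, and was not called at −0.26 (SE 0.14, limma adjusted p = 0.283). Ubtf, which keeps the rRNA gene repeats open, had 20.8, 20.6 and 18.1 FPKM in RT-MPs libraries, against 21.0, 21.7 and 22.2 FPKM in Control libraries, and was not called at −0.12 (SE 0.07, limma adjusted p = 0.297). No gene of RNA polymerase III was called among 21 by limma, with 5 lower and 1 higher at an unadjusted p under 0.05 and 1 called lower by limma voom. Over all 11915 tested genes, 2488 were lower and 759 higher at that p in limma. Without RT-MPs replicate 3, limma called 4 of the 21 lower and 1 higher. The 4 are 19.0% of the 21, where 15.1% of all tested genes were called lower. No snoRNP assembly gene was called among 10 by limma, with 3 lower and 1 higher at an unadjusted p under 0.05 and 0 by limma voom. Without RT-MPs replicate 3, limma called 1 of them lower, Snu13, named after its value was seen, at −0.19 (adjusted p = 0.0208). That is 10.0% of the list, against 15.1% of all tested genes.

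Among rRNA-trimming enzymes, Pop1 and Rpp40 of RNases P and MRP fell by 0.49 and 0.42 on the log2 scale, 2 of 10 tested genes, and neither was called with median-ratio scaling (limma adjusted p = 0.0534 and 0.0596). The exosome list of 13 had 1 gene called in each direction with 6 libraries. It had 6 lower and 1 higher without RT-MPs replicate 3, and 0 lower and 1 higher with median-ratio scaling. With 6 libraries 7.69% of the list was called lower, against 2.70% of all tested genes. In this list 46.2% were called lower without RT-MPs replicate 3, against 15.1% of all tested genes. Its core subunit gene Exosc9 was at −0.33 (SE 0.07, limma adjusted p = 0.0468), and its cofactor gene Mphosph6 had 32.9, 35.5 and 35.5 FPKM in RT-MPs libraries, against 24.4, 27.2 and 24.8 FPKM in Control libraries, with a log2 change of 0.43 (SE 0.07, limma adjusted p = 0.0335).

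Among 19 tested regulators of ribosome production none was called lower and 1 was called higher. Of all tested genes 2.70% were called lower and 1.29% higher. The list median was 0.11, and turned to −0.19 after rescaling to an equal sum. Myc had 269.6, 251.8 and 289.0 FPKM in RT-MPs libraries, against 234.6, 244.7 and 234.1 FPKM in Control libraries. The groups did not overlap, with RT-MPs above Control, and the log2 change of 0.18 (SE 0.07, limma adjusted p = 0.155) was not called, nor was 0.13 (adjusted p = 0.0705) without RT-MPs replicate 3. Mxd1, a MYC antagonist that competes for the shared partner MAX, had 3.99, 3.91 and 4.16 FPKM in RT-MPs libraries, against 1.87, 2.57 and 2.05 FPKM in Control libraries. It rose, with a log2 change of 0.67 (SE 0.10, limma adjusted p = 0.0293) and 0.65 (adjusted p = 0.0124) without RT-MPs replicate 3. With limma 0 regulators were called lower, 2 had an unadjusted p under 0.05 in that direction, and limma voom called 0 lower. Without RT-MPs replicate 3, limma called 1 lower, Trp53, at −0.28 (adjusted p = 0.0111), and 3 higher: Mxd1, Mxi1 at 0.35 (adjusted p = 0.0321) and Mdm2 at 0.29 (adjusted p = 0.0163). Over all 11915 tested genes that fit called 1802 lower and 746 higher. Trp53, Mxi1 and Mdm2 are named after their values were seen.

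The cytosolic ribosomal protein genes encode what these factors assemble. Of 51 tested, limma called none, with 0 lower and 1 higher at an unadjusted p under 0.05 and none by limma voom. The median log2 change was 0.16, or 0.04 without RT-MPs replicate 3. In that fit 2 of the 51 were called higher, where 746 of all 11915 tested genes were. After rescaling to an equal sum the median turned to −0.15, against −0.38 over all tested genes. They took 5.38%, 5.21% and 6.57% of reads in RT-MPs, against 5.24%, 5.25% and 5.11% in Control.

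**Figure D5:**
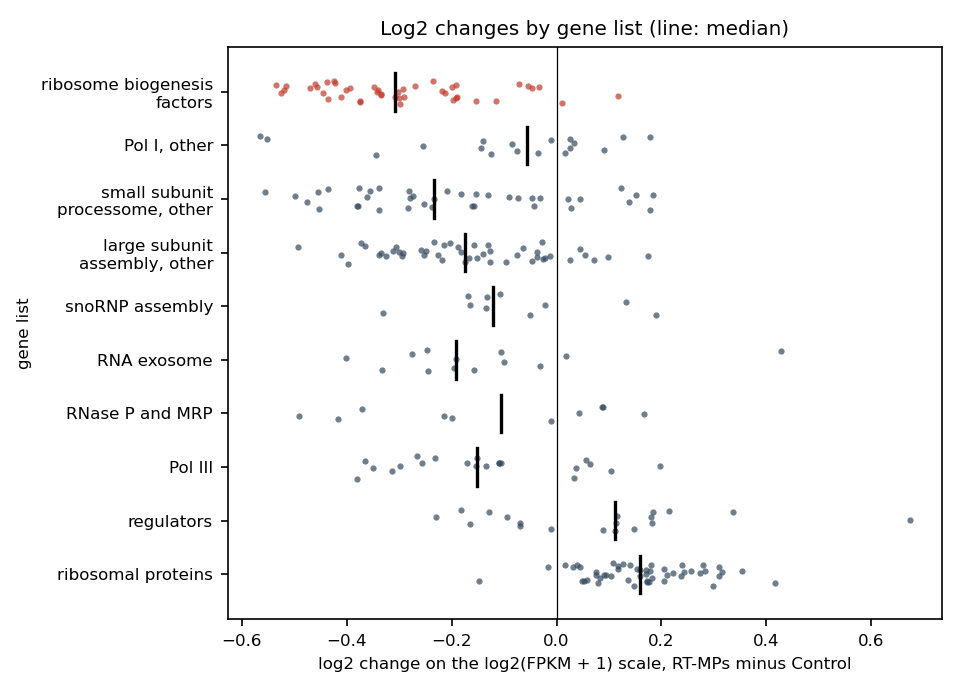
Log2 changes of the tested genes of each list, RT-MPs minus Control on the log2(FPKM + 1) scale, with the median of each list as a vertical line. Of the 10 lists the ribosome biogenesis factors have the lowest median, −0.31; the ribosomal proteins at 0.16 and the regulators at 0.11 are above 0 here and below it after rescaling to an equal sum.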

How the data were processed

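Trizol-extracted RNA went into KAPA stranded mRNA libraries, per the labels' protocols. The submitters' processing notes name HISAT2 and the mm10 build; how reads were counted per gene, with which annotation and strand setting, is not given in the sources used here. For each library the authors deposited FPKM values per gene. Groups came from sample titles.

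GENCODE M21 (GRCm38, the build of mm10) held 54409 of the 54446 identifiers and gave positions and lengths. The principal transcript of a gene was the longest among those that the annotation ranks highest as principal. FPKM times summed exon length times a fitted library total came to a whole number of reads (tolerance 0.1) for 98.9% to 99.1% of low values checked, and those totals are used as depth; which reads the authors counted in them is not known. The summed reads over genes exceed them slightly and are the base of read shares.

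Values were tested as log2(FPKM + 1) in the 11915 genes with a mean of at least 1 FPKM, RT-MPs minus Control, using two-sided limma tests (version 3.58.1, R 4.3.3, eBayes with a mean-variance trend) and Benjamini-Hochberg adjustment over all tested genes, threshold 0.05. The pseudocount makes changes of low genes smaller. Groups of 3 allow no exact permutation p under 0.1, so none is given. The fit was tested on simulated reads. Genes were chosen for naming by rule: every called gene, per role the most abundant gene and those with the lowest and highest change, up to 4 called genes per direction of each other list, and Myc, Ubtf and Rrn3. The members and lists were chosen with earlier results of these data known. Alternatives were 2 pseudocounts, 2 filters, 3 scalings, the replicate number as a term, arrayWeights, limma voom on recovered reads, and leaving out each library; median-ratio scaling without RT-MPs replicate 3 was added after the data were seen. Python 3.11.15, pandas 2.3.3 and scipy 1.17.1 were used.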

Additional observations from a re-analysis of the deposited data

How the results depend on the processing

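None of the 45 tested genes was called higher under any of the 17 alternatives. The count called lower, 10, was 9 and 11 with pseudocounts of 0.1 and 5 (2.5% and 3.06% of all tested genes were called lower there) and 13 with a mean of at least 5 FPKM (4.24%). It was 0 with no filter (0.0604%), 1 with median-ratio scaling (1.02%), 0 after rescaling to a common sum (0.243%), 4 with quantile normalization (1.28%), 35 with arrayWeights (27.7%; RT-MPs replicate 3 had a weight of 0.0799), 16 with limma voom (5.05%), 21 with median-ratio scaling without RT-MPs replicate 3 (7.08%), and 0 to 30 with a library left out. Over all tested genes the 476 calls in either direction became 449 and 524 with pseudocounts of 0.1 and 5, 488 with a mean of at least 5 FPKM, 377 with median-ratio scaling, 348 with quantile normalization, 26 with no filter, 46 after rescaling to a common sum, 4576 with arrayWeights, 800 with limma voom, 2121 with median-ratio scaling without RT-MPs replicate 3, and 0 to 2548 with a library left out. The median of the 45, −0.31, was −0.25 with a pseudocount of 5, −0.21 with median-ratio scaling, −0.62 after rescaling to a common sum, −0.25 with arrayWeights and −0.19 with median-ratio scaling without RT-MPs replicate 3, and lay between −0.35 and −0.27 with a library left out. Rescaling to a common sum divides each library by its FPKM sum, which was 585751.9 in RT-MPs replicate 3 and 296966.4 to 303798.5 in the others. The cause of the shifts in these counts and medians was not tested.

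With the replicate number as a term (replicate block) 0 of all tested genes were called and 0 of the 45. Of the 45, 32 had an unadjusted p under 0.05. How many of all tested genes had such a p in this fit is not given here. Deviations from the group mean of same-numbered libraries correlated at 0.10, −0.08 and −0.03, and those of differently numbered libraries at −0.11 to 0.12. With 3 libraries per group these values cannot decide whether the numbers pair the libraries.

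Signs changed in 6 genes, none of them called in a fit where the sign differed. With median-ratio scaling Nle1 was 0.019, Nop10 0.046, Noc2l 0.058 and Rrp1b 0.059. With quantile normalization Nle1 was 0.027, Nop10 0.003 and Rrp1b 0.060. With arrayWeights Noc2l was 0.007, Rrp1b 0.037 and Imp3 −0.009. After rescaling to a common sum Nob1 was −0.292 and Imp3 −0.186. With median-ratio scaling without RT-MPs replicate 3 Noc2l was 0.061 and Rrp1b 0.135. With a library left out Nop10 ranged from −0.158 to 0.002, Rrp1b from −0.096 to 0.066, Nob1 from −0.011 to 0.029 and Imp3 from −0.058 to 0.236.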
